A study of Mus musculus with 2 samples.

Results

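The genes described here are the mouse protein-coding genes whose longest annotated 3' untranslated region (3' UTR) exceeds that of Ikzf2. They numbered 125 of the 19943 protein-coding genes for which a 3' UTR is annotated, and of 22048 protein-coding genes in all. They were chosen by that length in the gene annotation deposited with the series: the 3' UTR rows of each protein-coding transcript were summed, and the largest sum of a gene was kept. Ikzf2 itself (ENSMUSG00000025997), which encodes the zinc finger transcription factor Helios, had 7554 bases and set the limit. The lengths are therefore a description of how the genes were chosen, and no test was made on them. The properties that the choice did not use are given as counts and medians beside the same values over all 19943 genes. Genes are not replicates of a condition, and these comparisons carry no p-value.

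The study made 2 single-cell RNA libraries from mouse cochleae at postnatal day 8, 1 for each of 2 groups. All mice were Myo15-Cre;Ai14: Cre driven by the hair cell gene Myo15 turns on the red fluorescent protein tdTomato of the Ai14 allele, and sorting for tdTomato enriched such cells. The control cochleae received an Anc80 virus carrying GFP, and the other cochleae received an Anc80 virus carrying Ikzf2. Anc80 is an adeno-associated virus capsid used for gene delivery to the inner ear. The number of animals per library was not given in the labels. Expression values of the 2 libraries were not analysed here, so the labelled cell type could not be checked against its markers and no level of any gene is given. The measurements are annotated positions and lengths in bases, and sequencing depth bears on none of them.

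The 3' UTR is the stretch of a messenger RNA between the stop codon and the poly(A) tail. It ends where the transcript is cleaved and polyadenylated, usually shortly after a hexamer signal, most often AATAAA and next most often ATTAAA. MicroRNAs and RNA-binding proteins bind 3' UTRs and act on the stability and translation of the messenger, and a gene with several cleavage sites makes messengers with 3' UTRs of different lengths. Long 3' UTRs are well known from neurons. The libraries of this study were primed with oligo-dT and read near the 3' end of each transcript. The annotated end of a gene thus sets the outer limit within which reads can be assigned to it.

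The last bases before the annotated end are shown for Ikzf2 and for 6 of the longer genes, because the end position is what sets their length. These genes were picked for display after their values were seen. Each line is the 30 bases around the last signal hexamer within 50 bases of the end, 5' to 3' on the gene's strand, with the hexamer in capitals.
Ikzf2: ttttaccaataaAATAAActtctgacagaa
D1Ertd622e: ataattgtactcATTAAAaaacattttaac
Hnrnpr: tggtgttactttAATAAActgttgtctgaa
Grin2b: ttatattcaaaaAATAAAgaaacctaccac
Ntrk3: tctcaaataaagAATAAAacaacaatgtca
Adcy1: ttatttaacaaaAATAAAggagaaaaattg
Dcx: tcattttccaaaAATAAAatttgatttcaa
The 7 stretches lie, in that order, on build GRCm38 at chr1:69531224-69531253 on the minus strand, chr1:97606318-97606347 on the minus strand, chr4:136359414-136359443 on the plus strand, chr6:135713245-135713274 on the minus strand, chr7:78175963-78175992 on the minus strand, chr11:7178467-7178496 on the plus strand and chrX:143855844-143855873 on the minus strand. Every stretch is in the 3' UTR of the last exon. D1Ertd622e carried ATTAAA there, and the other genes shown carried AATAAA.

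The lengths ran from 7560 to 39397 bases, with a median of 8725 and quartiles of 8048 and 10401. Over all genes with a 3' UTR the median was 851 bases. D1Ertd622e (chromosome 1, 97606318 to 97662074, minus strand) stood far from the rest at 39397 bases, on a coding sequence of 624 bases. Zbtb20 (chromosome 16, 42875881 to 43642602, plus strand), a zinc finger transcription factor, followed with 23858 bases. Hnrnpr (chromosome 4, 136310942 to 136359447, plus strand), a nuclear ribonucleoprotein that binds messenger RNA, had 19419 bases. Grin2b (chromosome 6, 135713233 to 136173511, minus strand), a subunit of the NMDA-type glutamate receptor, had 18865 bases. The other genes among the 10 longest were the zinc finger gene Zbtb37 with 16999 bases, the neurotrophin-3 receptor gene Ntrk3 (chromosome 7, 78175959 to 78738012, minus strand) with 16600, Tmem72 with 15988, the clathrin adaptor kinase gene Aak1 with 15925, the RNA-binding protein gene Strbp with 14162 and the messenger RNA-binding protein gene Serbp1 with 13777. Just above the limit lay Gm6086 with 7622 bases, Zdhhc21 with 7591 and Fam160a2 with 7560. Just below it lay Cmah with 7536 bases, Ptprt with 7526 and Tnr with 7516, so the boundary falls in a continuous run of lengths.

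The 125 genes are 0.627% of the genes with a 3' UTR and held 1244856 bases of longest 3' UTR, or 4.72% of the total. Their 3' UTRs were 4.934 times as long as their coding sequences when both were summed. The 3' UTR made up a median of 82.34% of the transcript, from 51.35% in Cacna1e to 97.57% in D1Ertd622e. The median over all genes was 36.39%. For most of these genes the coding part is thus a minor part of the annotated messenger.

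**Figure D1:**
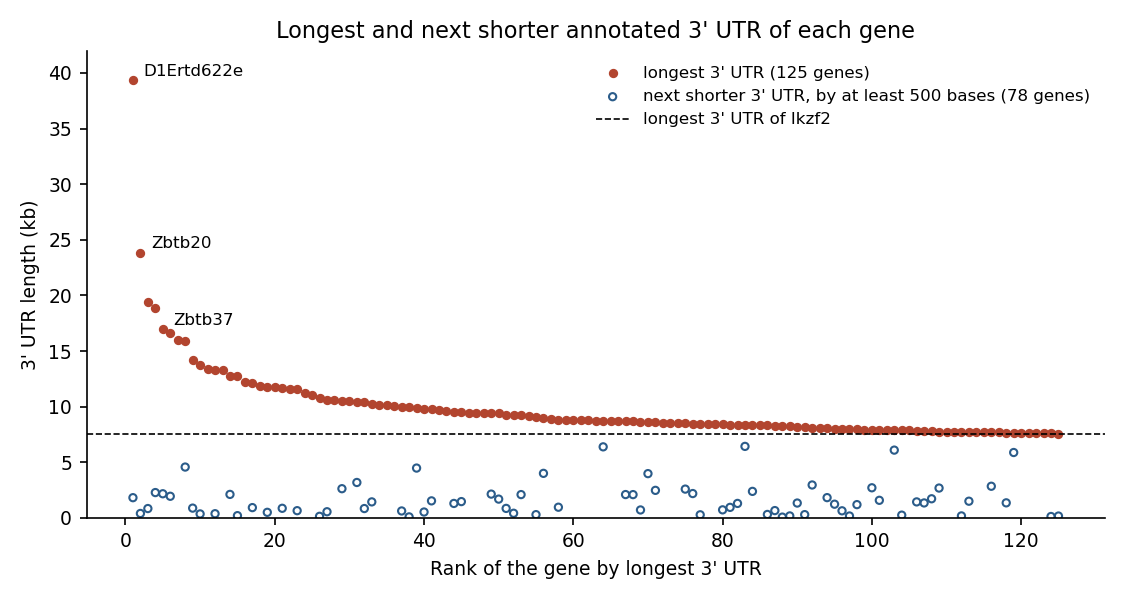
Longest annotated 3' UTR (filled points, in kilobases) of the 125 genes in order of length, and the next 3' UTR shorter by at least 500 bases (open circles) for the 78 genes that have one. D1Ertd622e stands apart at 39397 bases, and every open circle lies under the dashed line at the 7554 bases of Ikzf2.

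Coding length, which the choice did not use, had a median of 1707 bases against 1182 over all genes. It spanned 219 bases in Tmem167, 237 in Lyrm9 and 366 in 1700025G04Rik to 5433 in Tnrc6b, 6024 in Tet1 and 6822 in Cacna1e. Tmem167 encodes a small Golgi membrane protein, Tet1 an enzyme that oxidises methylcytosine in DNA, and Cacna1e the pore subunit of a voltage-gated calcium channel. Very short and very long proteins thus both occurred behind these 3' UTRs. The genomic span had a median of 96653 bases against 19135, and the transcript giving the longest 3' UTR had a median of 11 exons against 7. In the 435 genes of the next length class, over 5000 bases and up to the Ikzf2 value, the medians were 1671 coding bases, a span of 71078 bases and 10 exons. The coding length and exon number of the longer genes were therefore close to those of the class below them.

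The longest 3' UTR lay within a single exon in 123 genes. It was spread over several exons in 2 genes, 1.60% against 5.13% over all genes. These were Nfat5, the transcription factor of the osmotic stress response, and Ddi2, a protease that acts on ubiquitinated proteins.

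A shorter alternative was annotated for most of the genes. A second protein-coding 3' UTR, shorter by at least 500 bases, was present in 78 genes, or 62.4%. The share was 21.7% over all genes and 59.5% in the next length class. It could hardly arise in genes whose longest 3' UTR is short, so the next length class is the closer comparison, and there the shares differed by a few percentage points. The next shorter 3' UTR had a median of 1313 bases, from 65 in Slc5a3 to 6424 in Cux1. The longest 3' UTR was a median of 7.609 times as long, with a range of 1.294 to 127.1.

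The shorter 3' UTR ended inside the same last exon, an arrangement called tandem, in 70 genes (56.0%). The shares were 16.0% over all genes and 49.0% in the next length class. It ended in another last exon in 20 genes (16.0%), against 9.05% over all genes. The share in the next length class, the closer comparison, is not given for this form. Of the 78 genes, 58 had tandem ends alone, 8 had other last exons alone and 12 had both. Shortening within the last exon, which leaves the protein unchanged when the coding end is shared, was thus the common annotated form.

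Among the 10 longest genes, 9 had such a shorter form, and Tmem72 had none. D1Ertd622e dropped from 39397 to 1812 bases, Zbtb20 from 23858 to 393, and Hnrnpr from 19419 to 835. Grin2b dropped to 2272 bases, Zbtb37 to 2165, Strbp to 874 and Serbp1 to 352. Aak1 kept 4566 bases in its shorter form. In Ntrk3 the shorter 3' UTR of 1939 bases lay in another last exon and belonged to a transcript with 1839 coding bases, against 2478 on the longest. Ntrk3 is known for a truncated receptor without a kinase domain. The prolactin receptor gene Prlr had the same arrangement, with 2678 bases in another last exon against 7742. In the neuronal microtubule protein gene Dcx, the 3' UTR dropped from 7709 to 2840 bases. In the 50 bases before the tandem ends named here, AATAAA or ATTAAA was present in D1Ertd622e, Aak1 and Strbp. Neither was present in Zbtb20, Hnrnpr, Grin2b, Zbtb37, Serbp1 and Dcx. Still shorter tandem ends carried one in Hnrnpr (653 bases) and Serbp1 (107 bases).

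The genes had a median of 5 transcripts against 3 over all genes, and of 3 protein-coding transcripts against 2. More than 1 transcript was annotated for 111 genes (88.8%), against 68.8% over all genes. At least 10 transcripts were annotated for 22 genes (17.6%), against 9.09%. Itsn1, a scaffold of endocytosis, had the most with 26, followed by Zbtb20 with 21, Ntrk3 with 20, and the POU-domain transcription factor gene Pou2f1 and the kinase gene Tnik with 18 each. At the other end, 14 genes had a single transcript, among them Ago2, Tnrc6b, Camk4, Zbtb1 and Rab3c. The next length class also had medians of 5 transcripts and 4 distinct 3' ends.

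Distinct 3' end positions over all transcripts had a median of 4 per gene against 3. More than 1 end was annotated for 107 genes (85.6%), against 65.3%. Itsn1 had 24 ends, Zbtb20 and Ntrk3 had 20 each, and Serbp1 and Nop58, which encodes a core protein of small nucleolar ribonucleoproteins, had 15 each. Counted over protein-coding transcripts with a 3' UTR alone, the median was 2 ends against 1. Of the 746 transcripts of these genes, 439 (58.8%) were protein-coding, 144 (19.3%) retained an intron, 100 (13.4%) were processed transcripts and 63 (8.45%) were targets of nonsense-mediated decay. The shares over all genes were 59.2%, 19.9%, 14.4% and 6.39%, so the mixture of transcript types was close to that of the whole annotation. At least 1 transcript marked as incomplete at its 3' end was present in 49 genes (39.2%), against 22.7%. The true end of such a transcript is unknown. With these transcripts left out, the median was again 4 ends, against 2 over all genes.

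**Figure D2:**
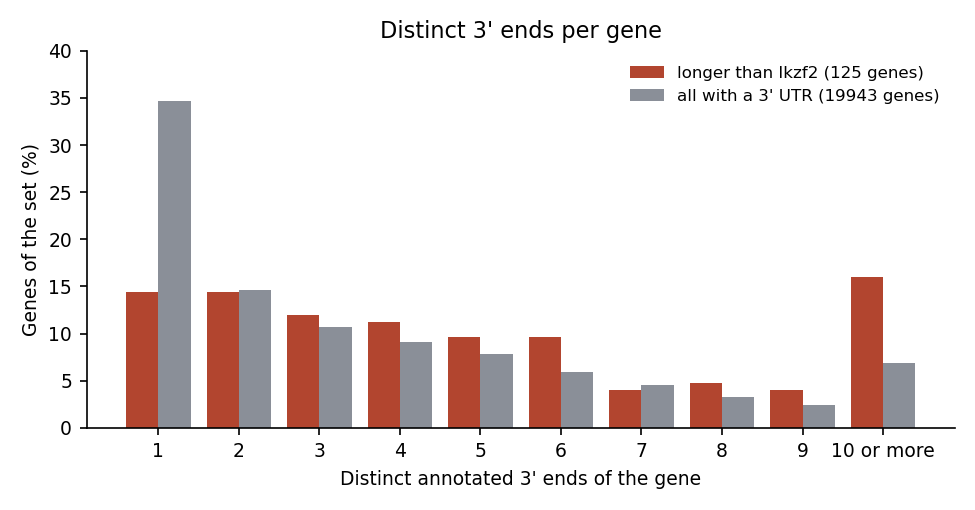
Percent of genes (y axis) by number of distinct annotated 3' ends (x axis, with 10 or more together), for the 125 genes and for all 19943 genes with a 3' UTR. A single end is annotated for 14.4% of the 125 genes and 34.7% of all genes, and 10 or more for 16.0% and 6.83%.

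By function, the genes were placed in 13 lists defined by symbol. Membership follows the symbol alone, so the lists both miss genes of a kind and take in others. Counts over these lists are descriptions, and no enrichment test was made. Ion channels and neurotransmitter receptors took 12 genes, or 9.60% against 1.85% over all genes and 1.84% in the next length class. The match on symbols swept in Tmem167, which is no channel, so 11 genes were channels or receptors proper. Glutamate receptors were represented by both Grin2b (18865 bases) and Grin2a (9929), the NMDA receptor subunits that set the channel's kinetics. GABA-A receptor subunits were represented by Gabrb1 (12228) and Gabrg3 (7948). Voltage-gated potassium channels included Kcnb2 (12121), Kcnh7 (9532), Kcna2 (9401) and Kcnq3 (8784). The calcium channel gene Cacna1e had 7662 bases.

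Regulators of transcription took 14 genes in the list of transcription factors, 11.2% against 4.68% over all genes and 8.74% in the next length class. The longest were Zbtb20 (23858 bases), Zbtb37 (16999) and Onecut2 (11857), a homeobox factor. The shortest was Nfia with 7639, a factor of the nuclear factor I family. The nuclear receptor gene Rora (9285) and the Hippo pathway factor gene Tead1 (8147) lay between them. Chromatin proteins took 4 genes, 3.20% against 1.32%, among them the Polycomb-associated Asxl2 (9841), the heterochromatin protein gene Cbx5 (8097) and Tet1 (7962).

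RNA-binding and RNA-silencing proteins took 4 genes, 3.20% against 1.47%. Besides Hnrnpr they were Ago3 (12742 bases), Tnrc6b (11610) and Ago2 (11064). Argonaute proteins hold the microRNA, and Tnrc6b is the scaffold that joins them to the machinery that shuts off the messenger. The list missed Strbp and Serbp1, which also encode RNA-binding proteins, so 4 is not the count of all such genes here. At their RefSeq bounds, described further on, Hnrnpr would have 5953 bases and Ago2 5283, both under the limit.

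Kinases, phosphatases and receptor kinases took 13 genes, 10.4% against 2.66% over all genes and 7.59% in the next length class. The longest were Ntrk3 (16600 bases), Aak1 (15925) and Camk4 (10566), a calcium/calmodulin-dependent kinase. Receptor kinases besides Ntrk3 were Bmpr2 (8529), Erbb4 (7855), the neuregulin receptor, and Ephb2 (7783), an ephrin receptor of axon guidance. Small GTPases and their regulators took 5 genes, 4% against 2.10%: Agap1 (8723), Rab30 (8596), Psd3 (7890), Psd4 (7720) and the synaptic vesicle GTPase gene Rab3c (7628). The ubiquitin list took 4 genes, 3.20% against 2.60%, namely Ubn2 (10476), Rnf217 (9465), Cbl (8469) and Rnf150 (7717). Ubn2 matched by spelling only, since it encodes a ubinuclein.

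Solute carriers took 5 genes, 4% against 2.70%: Slc1a2 (9250 bases), the glial glutamate transporter, Slc4a8 (8337), Slc5a3 (8260), Slc24a2 (8220) and Slc30a7 (7691). Cytoskeletal proteins took 3 genes, 2.40% against 1.69%: the actin regulator genes Enah (9476) and Tmod2 (8468), and Dcx (7709). Synaptic and cell adhesion proteins took 2 genes, 1.60% against 1.84%: Homer2 (9772) and Cadm2 (7672). Growth factors, guidance cues and their receptors took 1, Prlr, or 0.800% against 1.74%. Olfactory, vomeronasal and taste receptors took 0 against 2.06%. That 0 holds for this annotation, in which the list's genes with a 3' UTR had a median of 65 bases: in the later GENCODE release M21, 40 of the 202 genes above the same limit were olfactory or vomeronasal receptors absent from the set here. These shares each rest on 5 genes or fewer. In none of the 13 lists were 57 genes, 45.6% against 73.0% over all genes.

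**Figure D3:**
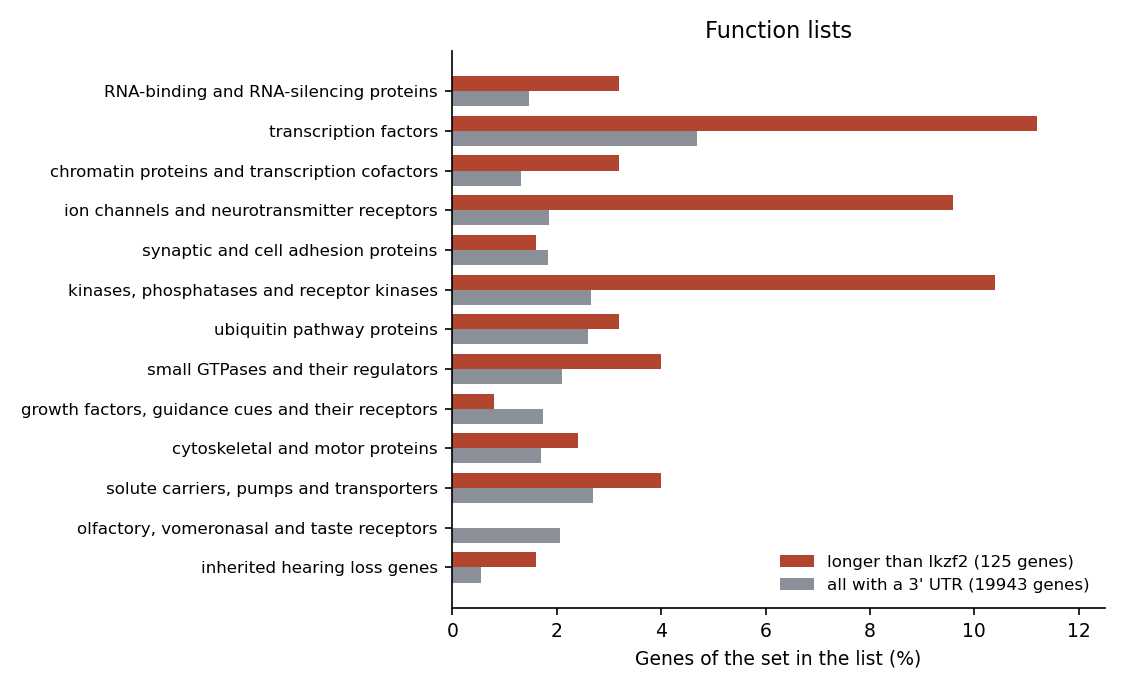
Percent of genes (x axis) in each of the 13 lists, for the 125 genes and for all 19943 genes with a 3' UTR. Ion channels and receptors (9.60% against 1.85%), kinases and phosphatases (10.4% against 2.66%) and transcription factors (11.2% against 4.68%) lie farthest apart among the lists.

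Of the genes of inherited hearing loss, 2 were among the 125, or 1.60% against 0.542%. They were Homer2, a scaffold protein that binds calcium signalling proteins, and Adcy1 (8791 bases), an adenylyl cyclase stimulated by calcium. Homer2 had 9 transcripts with 7 distinct ends, and its next shorter 3' UTR was 523 bases long. Adcy1 had 2 transcripts, with no second coding 3' UTR.

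By position, 23 of the 125 genes lay on chromosome 1, which also carries Ikzf2. That was 18.4% of them, against 5.77% of all genes with a 3' UTR. In the next length class 69 of 435 genes, or 15.9%, lay on the same chromosome. Expressed per 100 genes of the chromosome, chromosome 1 held 2 of the 125 genes, followed by chromosome 16 with 1.13 and chromosome 18 with 1.01. Chromosomes 14 and 17 held a single gene each (Xpo7 and Tbp), and chromosomes 19 and Y held 0. These counts depend on the annotation. In GENCODE M21, 202 genes passed the limit and the share on chromosome 1 was 11.4%. Of the 79 genes gained there, 0 lay on chromosome 1, 11 on chromosome 14, 11 on chromosome 17 and 3 on chromosome 19. Chromosomes 3, 4, 11, 16, X and Y also gained 0. Olfactory or vomeronasal receptors made up 40 of the 79, with 6 of those on chromosome 17 and 2 on chromosome 19. The share of all M21 genes on chromosome 1 is not given here. Besides D1Ertd622e and Zbtb37, the genes on chromosome 1 included Kcnb2, Pou2f1, Bmpr2, Erbb4 and Cacna1e. On the plus strand lay 65 of the 125 genes (52.0%, against 50.1%).

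In 9 pairs, successive genes of the set lay within 1000000 bases of each other. Nop58 and Bmpr2 on chromosome 1 were the closest, 44355 bases apart with 0 other coding genes between them. Itsn1 and Slc5a3 on chromosome 16 were 137724 bases apart, also with 0 between. Related members sat apart from each other: Grin2a and Grin2b, Ago2 and Ago3, and Psd3 and Psd4 each lay on different chromosomes.

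**Figure D4:**
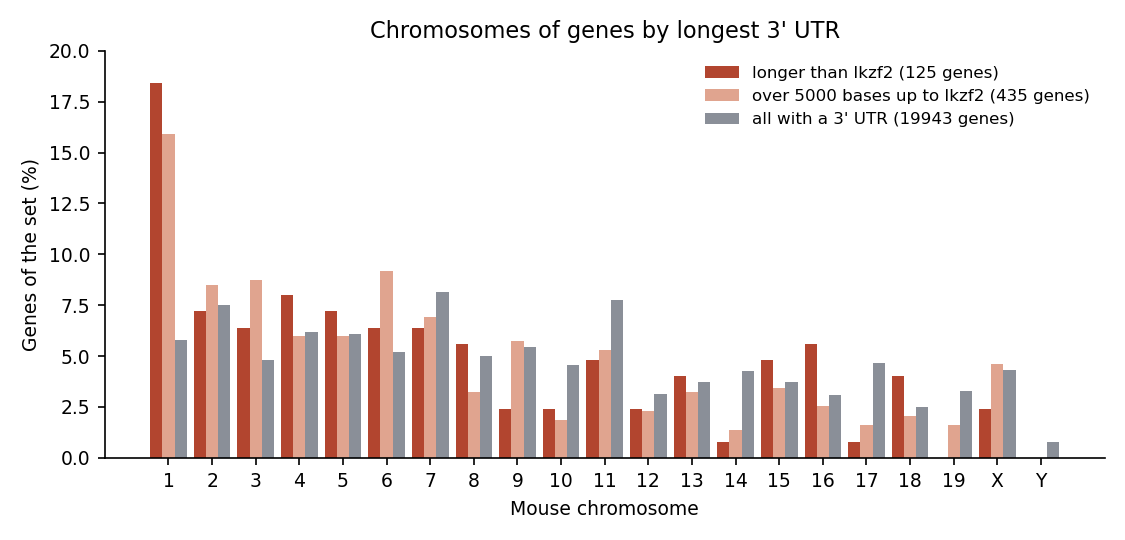
Percent of genes (y axis) on each chromosome (x axis) for the 125 genes, the 435 genes with over 5000 bases up to the Ikzf2 value, and all 19943 genes with a 3' UTR. Chromosome 1 holds 18.4%, 15.9% and 5.77% of the 3 sets.

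Overlap with other genes bears on a 3' library, since reads are assigned by position and strand. A same-strand exon of another gene lay within the longest 3' UTR of 1 gene (0.800%, against 1.54%). This was Ddi2, with Rsc1a1 inside it, so reads there cannot be told apart by position. An exon on the opposite strand lay within the 3' UTR of 14 genes (11.2%, against 8.25% over all genes and 8.74% in the next length class), although these 3' UTRs offer far more sequence to overlap. Examples were Ago2 with Chrac1, Hnrnpr with Gm27022, Pou2f1 with Cd247 and Serbp1 with Il12rb2. In the last 500 bases of the transcript, a window of the same size for every gene, a same-strand exon of another gene was present in 0 of the 125 genes against 1.60%. An opposite-strand exon was present there in 3 genes (2.40%, against 7.52% over all genes and 4.83% in the next length class): Zbtb37 with Serpinc1, Kcnh7 with Gca and Ttc14 with Ccdc39. The gap from the 3' end to the next gene had a median of 24669 bases against 14251.

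The transcript behind the longest 3' UTR had the annotation's best support level, 1, in 100 genes (80.0%, against 78.1%). The weakest level, 5, was given in 21 genes (16.8%, against 11.0%), among them Zbtb20, Grin2b, Homer2 and Itsn1. Ties on length went to the longest coding sequence. In Xpo7, Erbb4 and Psd3, counted at level 5, a level 1 transcript had the same longest 3' UTR. It was merged from automatic and manual annotation in 84 genes (67.2%, against 58.8%) and automatic alone in 19 (15.2%, against 22.6%). A consensus coding sequence was assigned to it in 114 genes (91.2%, against 85.5%).

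A poly(A) signal was sought in the transcript sequences of a second annotation of the same build, used where the transcript was identical in exons and length. That held for 110 of the 125 genes and 16205 of the 19943. AATAAA or ATTAAA was present in the last 50 bases of 95 of the 110 genes (86.4%), against 76.9% over all genes and 87.1% in the next length class. AATAAA was present in 84 (76.4%, against 63.3%), and ATTAAA without AATAAA in 11 (10.0%, against 13.6%). The 15 genes with neither included Zbtb20, Homer2, Cux1 and Tnik. The absence says only that these letters are not in this window. At the shorter tandem ends of complete transcripts, the signal was present before 40 of 124 ends (32.3%, in 68 genes), against 33.7% over all genes. This was below the 86.4% at the longest ends, as 33.7% was below 76.9% over all genes. The 2 shares count genes in one case and ends in the other, over different sets of genes. Some tandem ends also lie close behind the stop codon, as in Pou2f1 with 2 bases. The window of 50 bases there reaches into coding sequence.

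Inside the 3' UTRs, the 2 hexamers occurred a median of 12 times per gene against 2, and D1Ertd622e held 61. Per kilobase they numbered 1.45 against 1.82. These counts include the signal near the end, which adds more per kilobase to a short 3' UTR. The 2 densities therefore do not compare the sequence before that signal. A run of at least 10 A, where oligo-dT can anneal inside a transcript, was present in 77 of the 110 genes (70.0%, against 13.4%). Per kilobase the runs numbered 0.142 against 0.131, so the large gap in the share was not seen in the density. The A+T content of all bases together was 58.38% against 56.31%. It was lowest in Ephb2 with 46.02% and highest in Cadm2 with 67.58%, and Ikzf2 had 62.1%.

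MicroRNA seed matches were counted for the miR-96, miR-182 and miR-183 cluster, which is known from hair cells, for let-7a and for the neuronal miR-9. The mature sequences, from RefSeq (GRCm38.p6), are given 5' to 3' with the seed, bases 2 to 8, in capitals, because the seed defines the match. The first 3 share most of the seed.
miR-96-5p: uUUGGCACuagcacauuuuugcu
miR-182-5p: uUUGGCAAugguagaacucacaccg
miR-183-5p: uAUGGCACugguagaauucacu
let-7a-5p: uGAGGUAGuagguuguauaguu
miR-9-5p: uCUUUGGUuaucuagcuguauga
A match is the reverse complement of the seed on the transcript strand: GTGCCAA for miR-96, TTGCCAA for miR-182, GTGCCAT for miR-183, CTACCTC for let-7a and ACCAAAG for miR-9.

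At least 1 match to miR-96 was present in 45 of the 110 genes (40.9%, against 7.75%), to miR-182 in 61 (55.5%, against 10.7%) and to miR-183 in 53 (48.2%, against 8.42%). For let-7a the count was 54 (49.1%, against 8.48%), and for miR-9 it was 54 (49.1%, against 11.1%). A longer 3' UTR holds more matches by length alone, so the densities are given too. Per kilobase, the density of matches was 0.0555 against 0.0634 for miR-96, 0.0928 against 0.0905 for miR-182 and 0.0683 against 0.0677 for miR-183. It was 0.0701 against 0.072 for let-7a and 0.0947 against 0.095 for miR-9. By density, the long 3' UTRs were therefore close to the rest for each of the 5 microRNAs. D1Ertd622e held 12 matches to the hair cell cluster, Aak1 6 and Cbx5 5, while Ikzf2 held 0 of them and 2 for miR-9.

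The cluster matches of the hearing loss genes are shown with their surroundings, because both genes are known from the ear. The match is in capitals within 30 bases, 5' to 3' on the gene's strand. Homer2 held 1 match to miR-96 and 1 to miR-183, and Adcy1 held 2 to miR-183. The median over the 110 genes with sequence was also 2 cluster matches. Per kilobase, Homer2 held 0.205 and Adcy1 0.228, against 0.217 over the 110 genes and 0.222 over all genes with sequence.
Homer2, miR-96: gtgtcccttagGTGCCAAgaagaaataaat
Homer2, miR-183: gactgtggactGTGCCATgcatgacttcag
Adcy1, miR-183: ctcctcttcctGTGCCATggctgcacattc
Adcy1, miR-183: ttccatgggctGTGCCATcctgggacagtc
On build GRCm38 these lie at chr7:81607043-81607072 and chr7:81604672-81604701 on the minus strand, and at chr11:7170526-7170555 and chr11:7173180-7173209 on the plus strand. In Homer2 they start 3192 and 5563 bases into the 3' UTR, beyond the 523 bases of its next shorter form. In Adcy1 they start 822 and 3476 bases into it. A match is a description of the letters and not a measured site.

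The ends were set against another gene catalogue, RefSeq, in which 123 of the 125 genes were matched by symbol (D1Ertd622e and Gm6086 were not). The outer bound of the RefSeq gene lay within 100 bases of the annotated end for 73 genes (59.3%), against 77.6% over all genes and 72.2% in the next length class. It lay over 1000 bases short of the end for 38 genes (30.9%), against 3.37% over all genes and 17.0% in the next length class. It lay over 1000 bases beyond the end for 8 genes (6.5%, against 10.1%), and 4 genes were in neither class. The RefSeq bound is that of the whole gene, while the end is that of the transcript with the longest 3' UTR. In St8sia4, Zfp451, Cux1 and Prlr, other transcripts in the annotation here also ran on to nearly the RefSeq bound. For these genes the distance is therefore no difference between the catalogues over the outer end of the gene. Tmem167 was counted as beyond by 2664 bases. Its longest 3' UTR ended at 90112257, but the gene here ran on to 90143907, past the RefSeq bound. The shortfall had a median of 6977.5 bases, from 1087 in Caln1 to 13466 in Hnrnpr. It was 12476 bases in Tmem72, 10952 in Tbp and 10667 in Dpp10. Among the 10 longest genes, Zbtb20, Hnrnpr, Ntrk3, Tmem72 and Serbp1 were short, while Grin2b, Zbtb37, Aak1 and Strbp were within 100 bases.

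At the RefSeq bound, 35 of the 38 genes would have no more 3' UTR than Ikzf2. Support level 1 was given to 31 of the 38, where the share was 80.0% over all 125 genes. The poly(A) signal was present at the longer end in 27 of the 36 short genes with sequence (75%), and in 58 of 60 genes (96.7%) whose bound was within 100 bases. Both catalogues thus placed the end of Grin2b, Adcy1 and Homer2 at nearly the same base, and they differed by 13466 bases on Hnrnpr and 5781 on Ago2. On chromosome 1, 8 of 21 matched genes were short (38.1%), against 30 of 102 elsewhere (29.4%).

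**Figure D5:**
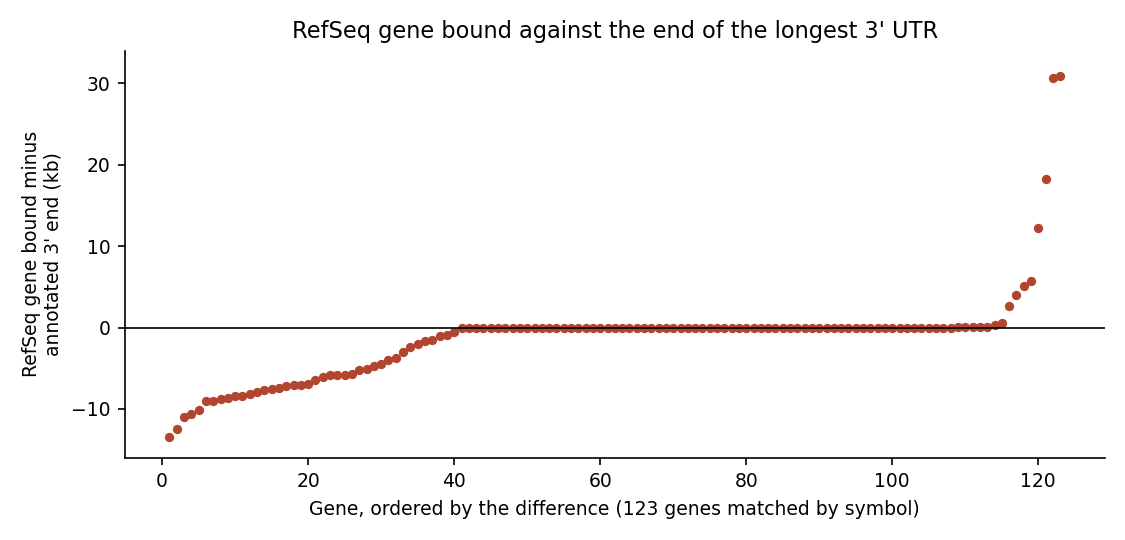
Distance in kilobases from the end of the longest 3' UTR to the outer bound of the whole RefSeq gene (y axis). The 123 genes matched by symbol are ordered by that distance (x axis). For 38 genes the bound is over 1000 bases short of the end, by up to 13466 bases in Hnrnpr, and 73 genes lie within 100 bases of 0.

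Under the same rule, GENCODE release M21, a later annotation of the same build, gave Ikzf2 7554 bases again and placed 202 genes above it. Of these, 123 were among the 125 genes here, which is 98.4% of the genes here and 60.9% of those in the later release. The length was identical in 118. Pura, with 13394 bases here and 4408 there, and Camk4, with 10566 and 1069, were lost. Onecut2 went from 11857 to 14356 bases. The 79 genes gained included 40 olfactory and vomeronasal receptor genes and, among the others, D10Wsu102e (122583 bases there, 2913 here), Fam135b (14291 and 222) and the potassium channel gene Kcnma1 (7730 and 1197). Cmah, the nearest gene below the limit here, passed it there with 7628 bases.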

How the data were processed

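The file analysed was the gene annotation that the authors deposited for the whole series, which holds genome positions and text. Its build is GRCm38.p4, per the file headers, and 4 gene models with the source CUSTOM were added by the authors and left out here. The submitters' processing notes name Cell Ranger 2.0.2 without its role. The aligner was not given in the sources used here. There were 0 columns of per-sample values, so depth had no part in these values.

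Of transcripts tied on 3' UTR length, the longest coding sequence was taken. Ends were positions of transcript ends. Overlap needed at least 1 base. Sequences came from GENCODE M21 transcripts with the same version, length and exons, and 15 of the 125 genes had none. Motifs were searched on the transcript strand. RefSeq bounds came from GRCm38.p6, by symbol. The members and lists were chosen with earlier results of these data known. Named genes were the 10 longest, the 3 nearest each side of the limit, the 3 longest of each list, the 5 with most transcripts and the 5 with most ends, the 3 smallest and 3 largest coding lengths, and groups of 5 or fewer; other names were chosen after their values were seen. Some genes that the rule names are counted but not reported here by name. Python 3.11.15, NumPy 2.4.6 and Matplotlib 3.10.9 were used. The parsing was tested on simulated data, with all measures right for 200 of 200 genes.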

Additional observations from a re-analysis of the deposited data

How the results depend on the processing

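The count of genes above the limit was 125. With the median in place of the longest 3' UTR of each gene it was 50, and with GENCODE M21 it was 202. With support level 1 alone it was 103, and with ends cut at a nearer RefSeq bound, over matched genes, 88. The share on chromosome 1, 18.4%, was 11.4% with GENCODE M21 and 14.8% to 20% under the 4 other alternatives. The median of 5 transcripts per gene became 3 with protein-coding transcripts alone, and the median of 4 distinct ends became 2 with protein-coding transcripts with a 3' UTR alone. The count of 78 genes with a second 3' UTR was 77 or 78 under each of 3 alternatives. The poly(A) signal count of 95 ranged from 84 to 95. The 14 genes with an opposite-strand exon became 10 with coding genes alone. The RefSeq cut, the chromosome alternatives and the removal of incomplete transcripts were chosen after seeing the data. No paired analysis was possible because no file with values of the 2 libraries was used here, and for the same reason no replicate could be left out. What decides these values is the annotation, and which ends are used in cochlear cells was not measured here.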
